A study of Mus musculus with 2 samples.

Results

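Wnt signalling genes were examined for chromatin recovered with anti-FLAG antibody from mouse fibroblasts that carry FLAG-tagged cyclin D1. The members were the protein-coding genes of 3 classes named by their role in the pathway. All 41 were found among the 22350 protein-coding genes on the autosomes and X of the NCBIM37 annotation. They comprised 17 Wnt ligands, 12 receptors (10 Frizzled genes, Lrp5 and Lrp6) and 12 intracellular genes. Chromatin immunoprecipitation followed by sequencing (ChIP-seq) was done in 1 anti-FLAG library and 1 control library with normal mouse IgG. Both came from untreated Ccnd1-/- 3T3 cells, embryonic fibroblasts without the endogenous cyclin D1 gene, which were transduced with an MSCV retroviral vector for FLAG-cyclin D1. The antibody was the only difference between the groups that the labels give, and the tagged protein was made from a viral vector, not from its own locus. Cyclin D1 drives cells through G1 as the partner of CDK4 and CDK6, and it also associates with chromatin. The comparison asks where anti-FLAG recovered more chromatin than IgG.

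Wnt proteins are secreted, lipid-modified ligands that bind Frizzled receptors together with the co-receptors Lrp5 or Lrp6. Without ligand, a destruction complex built on Axin and Apc lets the kinase Gsk3b mark beta-catenin (Ctnnb1) for degradation. With ligand, Dishevelled proteins (Dvl) help to inhibit that complex, and beta-catenin enters the nucleus and joins factors of the TCF/LEF family at target genes. Some ligands, Wnt5a among them, also act without beta-catenin, and the pathway guides patterning in the embryo and the behaviour of mesenchymal cells such as fibroblasts.

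The anti-FLAG library held 9259840 tags and the IgG library 9312346, a tag being 1 mapped 36-bp read position. Neither antibody had a replicate library, so every interval covers counting error only and every test compares these 2 libraries. As a check of the labelled genotype, introns 1 to 3 of Ccnd1 held 1 anti-FLAG and 0 IgG tags in 4860 bp, against 17.04 and 17.14 expected at the genome-wide means. Tags are pooled over all cells, so more cells with the protein at a site and more protein per cell cannot be told apart. No transcripts were measured, so expression of the members and the fibroblast markers could not be examined. The libraries also covered GC-rich DNA unequally. Away from promoters, in 500-bp windows more than 10 kb from any transcription start site (TSS), anti-FLAG tags exceeded scaled IgG tags 1.02-fold at 42 to 44% GC, 1.33-fold at 50 to 52% and 2.23-fold at 60 to 62%. Members had GC-rich promoters, with a median of 61.0% GC within 1 kb of the TSS against 51.1% over all protein-coding genes, so values are given against IgG and also after division by this GC ratio.

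Promoters were taken to reach 1 kb in both directions from a gene's 5' end (its TSS), and tags were compared with the 2-sided exact conditional binomial test after scaling of the IgG library by 0.994. Of the 41 members, 19 had the 20 tags in both libraries together that were required for testing, and 10 were higher in the anti-FLAG library at a Benjamini-Hochberg adjusted p under 0.05, with 0 lower. Over all 10947 promoters tested, the share called higher was 29.6% and the share called lower 0.0913%. The called members were 1 ligand (Wnt5a), 5 receptors (Fzd1, Fzd2, Fzd4, Fzd5 and Fzd7) and 4 intracellular genes (Apc, Dvl2, Gsk3b and Tcf7l1). The median log2 ratio of tested members, with 1 tag added to each count, was 1.33, and that of all tested promoters was 0.88. A promoter with many anti-FLAG tags reaches the minimum more easily, so the medians over all genes, tested or not, are also given, 1.26 for the 41 members and 0.59 for all 22350. After correction by the GC ratio of distant windows, 0 of the 19 tested members passed the exact test, against 2.75% of all tested promoters called higher and 0.0274% called lower, and the medians were 0.79 and 0.51. At an unadjusted p under 0.05, 3 of the 19 were higher after this correction, against 19% of all tested promoters. Against the ratio of all promoters of the same GC, 0 of the 19 passed, and the shares called over all promoters were 0.0548% higher and 0.00913% lower. With the start of the longest coding transcript in place of the gene's 5' end, 8 members were called higher, against 30.1% of all promoters.

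**Figure D1:**
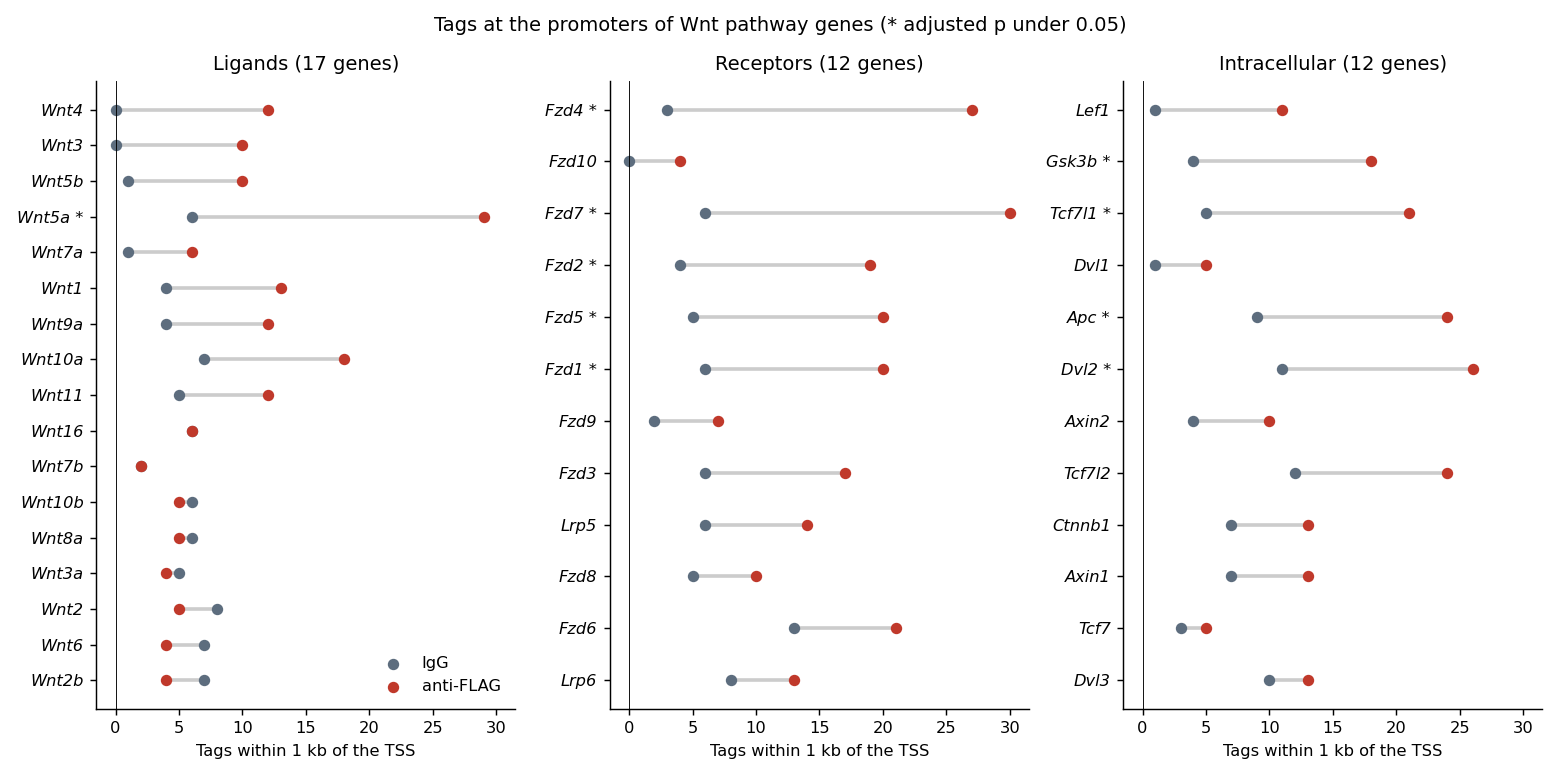
Tags within 1 kb of the TSS (x axis, number of tags) in the IgG library (grey) and the anti-FLAG library (red) for each of the 41 genes, ordered within class by ratio; where a single red point shows (Wnt16 and Wnt7b) both libraries had the same count. All 12 receptor and all 12 intracellular genes had more anti-FLAG than IgG tags, while 6 of 17 ligands had fewer. Of all 22350 protein-coding genes, 15759 (70.5%) had more and 4655 had fewer.

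The promoters of Fzd4, Fzd7 and Wnt5a, the members with the smallest p that also lay above the ratio found away from promoters at the same GC content, are shown with that of Axin2, the scaffold gene that is itself a well-known target of beta-catenin. Each line gives the bases just before the TSS on the plus strand, which is the strand of all 4 genes, from the NCBIM37 genome. Capitals mark matches on either strand to a GC box (GGGCGG), the element bound by Sp-family factors, or a CCAAT box (CCAAT), and other elements searched for had no match in these stretches. The positions were chr7:96552733-96552875 for Fzd4, chr1:59538741-59538990 for Fzd7, chr14:29317686-29317935 for Wnt5a and chr11:108781413-108781662 for Axin2.
Fzd4: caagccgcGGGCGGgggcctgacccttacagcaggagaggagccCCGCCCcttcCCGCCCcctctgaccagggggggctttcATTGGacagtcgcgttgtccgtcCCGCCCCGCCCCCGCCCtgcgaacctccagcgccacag
Fzd7: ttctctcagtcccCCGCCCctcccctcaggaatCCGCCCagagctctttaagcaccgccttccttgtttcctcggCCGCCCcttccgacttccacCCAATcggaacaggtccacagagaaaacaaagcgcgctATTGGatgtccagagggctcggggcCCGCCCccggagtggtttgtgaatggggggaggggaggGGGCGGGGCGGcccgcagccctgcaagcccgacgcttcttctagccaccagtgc
Wnt5a: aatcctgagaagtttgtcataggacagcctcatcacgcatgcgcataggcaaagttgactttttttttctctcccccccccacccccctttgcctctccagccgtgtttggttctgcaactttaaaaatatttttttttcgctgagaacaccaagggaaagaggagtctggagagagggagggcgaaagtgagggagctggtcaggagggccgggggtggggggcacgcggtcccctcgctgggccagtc
Axin2: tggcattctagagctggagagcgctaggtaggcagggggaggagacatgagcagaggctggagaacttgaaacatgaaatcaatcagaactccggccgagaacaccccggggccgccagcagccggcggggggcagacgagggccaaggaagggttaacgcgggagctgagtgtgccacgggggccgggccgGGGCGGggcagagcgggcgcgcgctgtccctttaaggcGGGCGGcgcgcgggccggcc
These stretches differ in their letters. The 143 bases of Fzd4 held 6 GC boxes and 1 CCAAT box and were 73.4% GC. The 250 bases of Fzd7 held 6 GC boxes and 2 CCAAT boxes at 65.2% GC, and those of Axin2 held 2 GC boxes at 69.2% GC. The Wnt5a stretch held none of the elements at 55.2% GC.

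In the window from 250 bases before to 50 after the TSS, counted on both strands, a GC box was present in 31 of 41 members (75.6%) and in 43.5% of all protein-coding promoters. Its letters are themselves GC-rich, and the median GC content of this window was 71.3% for ligands, 67.8% for receptors and 69.7% for intracellular genes, against 55.3% over all genes. The TCF/LEF element CTTTGAT, the letters read by the pathway's own transcription factors, was present in 3 members, Wnt8a, Wnt11 and Tcf7 (7.32%, against 3.47%). CCAAT boxes were present in 39.0% of members and 37.9% of all promoters. The CRE TGACGTCA was in 2.44% against 2.33%, the AP-1 element TGANTCA in 4.88% against 6.93%, the ETS element CCGGAAG in 7.32% against 10.8% and the E-box CACGTG in 9.76% against 7.79%. The E2F letters TTTCGCGC or TTTGGCGC were in 0 members and 1.02% of promoters. These matches describe letters in the window and not binding.

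Among ligands, Wnt5a stood out in tag number. Wnt5a (chromosome 14, 29317936 to 29340633, plus strand), best known for signalling without beta-catenin, had 29 anti-FLAG and 6 IgG tags, a ratio of 4.86 (95% exact interval 1.98 to 14.3, exact binomial test with Benjamini-Hochberg adjusted p = 0.0017). After the GC correction its log2 ratio was 1.54, with exact adjusted p = 0.113. Wnt10a, a ligand of tooth and skin development, was the only other ligand with enough tags to test, with 18 against 7 tags and a ratio of 2.59 (1.03 to 7.33, exact adjusted p = 0.0765). Only Wnt5a of these 2 passed the threshold, and the difference between them was not tested.

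The other 15 ligands were under 20 tags and were not tested. Wnt4, a ligand of kidney and gonad development, had 12 anti-FLAG tags against 0, 4.02-fold higher when IgG is set to a floor of 3 counts, with an exact 95% lower limit of 2.79 on the ratio. Wnt3, needed for the primitive streak, had 10 against 0, 3.35-fold higher at the same floor, with an exact lower limit of 2.25. The ratio expected from distant windows of the same GC was 2.76 for Wnt4, at 70.1% GC, and 1.66 for Wnt3. From all promoters of the same GC it was 3.50 for Wnt4 and 2.23 for Wnt3. Wnt5b had 10 against 1, with a ratio of 10.1 and a counting interval of 1.43 to 436, and Wnt7a had 6 against 1. At Wnt4 and Wnt5b the tags lay mostly further out, since within 500 bp of the TSS each had 1 anti-FLAG tag against 0, whereas Wnt7a had 4 and Wnt3 had 5 there, both against 0. Wnt1, first found as a site of retroviral insertion in mammary tumours, had 13 against 4, Wnt9a 12 against 4, and Wnt11 12 against 5. In Wnt16 (6 and 6) and Wnt7b (2 and 2) the libraries had equal counts. The remaining 6 had fewer anti-FLAG than IgG tags, namely Wnt2 (5 and 8), Wnt2b (4 and 7), Wnt6 (4 and 7), Wnt3a (4 and 5), Wnt8a (5 and 6) and Wnt10b (5 and 6). Differences of this size in a single gene were not detectable at this depth.

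In the genome, 3 pairs of ligand genes are neighbours, and in each pair the libraries compared differently. Wnt6 and Wnt10a start 19.624 kb apart on chromosome 1, and anti-FLAG was below IgG at Wnt6 but above it at Wnt10a. Wnt3a and Wnt9a start 16.176 kb apart on chromosome 11, with 4 and 5 tags at the first and 12 and 4 at the second. Wnt10b and Wnt1 start 11.707 kb apart on chromosome 15, with 5 and 6 tags at the first and 13 and 4 at the second. After the GC correction the log2 ratios were -1.59 at Wnt6 and 0.59 at Wnt10a, and -0.95 at Wnt3a and 0.30 at Wnt9a. For the chromosome 15 pair they were -1.26 at Wnt10b and 1.04 at Wnt1. The difference within a pair was not tested.

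All 10 Frizzled genes and both Lrp genes had more anti-FLAG than IgG tags, as did 70.5% of all protein-coding genes. Fzd4 (chromosome 7, 96552876 to 96558620), the receptor for norrin as well as for Wnts and a regulator of retinal vessels, had 27 tags against 3, a ratio of 9.05 (2.79 to 46.6, exact test adjusted p = 0.00033). The start of Tmem135 lies within 2 kb of it, so its window also covers part of that gene's promoter. Fzd7 (chromosome 1, 59538991 to 59543791) had 30 tags against 6, a ratio of 5.03 (2.06 to 14.8, exact test adjusted p = 0.0013). These were the receptor promoters with the largest anti-FLAG counts. Fzd2 (chromosome 11, 102465745 to 102469372), a receptor for Wnt5a, had 19 against 4 (ratio 4.78, interval 1.59 to 19.3, exact test adjusted p = 0.0108). Fzd5 (chromosome 1, 64777134 to 64784324) had 20 against 5 (4.02, 1.47 to 13.7, exact test adjusted p = 0.0150), and Fzd1 (chromosome 5, 4753842 to 4758216) had 20 against 6 (3.35, 1.30 to 10.2, exact test adjusted p = 0.0263). After the GC correction their log2 ratios were 1.93 for Fzd4, 1.41 for Fzd2, 1.29 for Fzd7, 1.01 for Fzd1 and 0.99 for Fzd5, and the exact adjusted p ran from 0.120 for Fzd4 to 0.424 for Fzd5.

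The Frizzled genes known for planar cell polarity, Fzd3 and Fzd6, were tested and did not pass. Fzd3 had 17 tags against 6 (exact adjusted p = 0.0653) and Fzd6 had 21 against 13 (ratio 1.62, interval 0.776 to 3.53, exact adjusted p = 0.279). Fzd6 had the most IgG tags of any member. Fzd8 (10 and 5), Fzd9 (7 and 2) and Fzd10 (4 and 0, an exact lower limit of 0.664 on the ratio) were too sparse to test, and an annotated pseudogene of the same name overlaps Fzd10. The co-receptors had smaller ratios. Lrp5, known for its effect on bone mass, had 14 tags against 6 (ratio 2.35, interval 0.847 to 7.45, exact adjusted p = 0.155). Lrp6, the lowest of the tested receptors, had 13 against 8 (1.63, 0.628 to 4.55, exact adjusted p = 0.402). A further coding start of Lrp6, 95672 bp downstream, had 21 against 7 tags (3.02, 1.24 to 8.40). It is 1 of 21 further starts counted over the members and was not tested. Summed over genes, the Frizzled promoters had 175 tags against 50, a ratio of 3.52 (2.56 to 4.92), and the Lrp promoters 27 against 14, a ratio of 1.94 (0.982 to 4.00), 2 intervals that overlap.

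Among the intracellular genes, calls were made for 2 of 4 tested genes of beta-catenin and the destruction complex. They were made for 1 of 2 in the Dishevelled group and 1 of 2 in the TCF/LEF group. Of all tested promoters 29.6% were called higher, and so few genes cannot set a group apart from that share. Tcf7l1 (chromosome 6, 72576372 to 72739248, minus strand), the TCF family member that acts mainly as a repressor, had 21 tags against 5, a ratio of 4.22 (1.55 to 14.3, exact test adjusted p = 0.0108). Gsk3b (chromosome 16, 38089087 to 38246170), the kinase of the destruction complex, had 18 against 4 (4.53, 1.49 to 18.4, exact test adjusted p = 0.0151). The Gsk3b call rested on which start was used. At the start of its transcript with the longest coding sequence, 1287 bp downstream, counts were 14 and 10 and the exact adjusted p was 0.540. Apc (chromosome 18, 34380578 to 34481843), the tumour suppressor that scaffolds the complex, had 24 against 9 (2.68, 1.20 to 6.56, exact test adjusted p = 0.0350). Its exact adjusted p was 0.0587 at the longest coding transcript's start, 60 bp away, with 25 and 11 tags. Dvl2 (chromosome 11, 69814097 to 69825803) had 26 against 11 (2.38, 1.14 to 5.33, exact test adjusted p = 0.0466). After the GC correction the log2 ratios were 1.25 for Tcf7l1, 0.87 for Apc, 0.79 for Dvl2 and 0.67 for Gsk3b.

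Counts at beta-catenin differed among its annotated starts. Ctnnb1 (chromosome 9, 120838334 to 120869625) had 13 tags against 7 at its 5' end (ratio 1.87, interval 0.693 to 5.53, exact adjusted p = 0.293). This window was the least GC-rich of all members, at 41.7%, and distant windows of that composition had an anti-FLAG to IgG ratio of 0.968. At the start of the transcript with its longest coding sequence, 4184 bp downstream, there were 14 tags against 1, a ratio of 14.1 with a counting interval of 2.14 to 595, in a window of 64.4% GC. With 15 tags in all, that start was below the minimum for testing. On the log2 scale its ratio was 2.91, and 2.44 after the GC correction. Its further coding starts, 21005 and 26241 bp downstream, had 5 against 7 and 9 against 8 tags.

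Other members of the intracellular class were mostly sparse or did not pass. Axin1, the limiting scaffold of the complex, had 13 tags against 7 (exact adjusted p = 0.293), and Axin2 had 10 against 4, a ratio of 2.51 (0.725 to 11.0), untested. Tcf7l2, a main TCF of the gut, had 24 against 12 (2.01, 0.968 to 4.41, exact adjusted p = 0.109). Lef1 had 11 tags against 1, a ratio of 11.1 (1.61 to 476), untested. Its log2 ratio was 2.59, 2.16 after the GC correction and 1.90 against all promoters of the same GC. The ratio expected from distant windows, 1.69, was above the lower limit of its interval. At a second coding start of Lef1, 2326 bp downstream, the counts were 7 and 9. Dvl3 was the lowest of the tested intracellular genes, with 13 against 10 (1.31, 0.530 to 3.33, exact adjusted p = 0.649). Dvl1 (5 and 1) and Tcf7 (5 and 3) were too sparse to test.

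**Figure D2:**
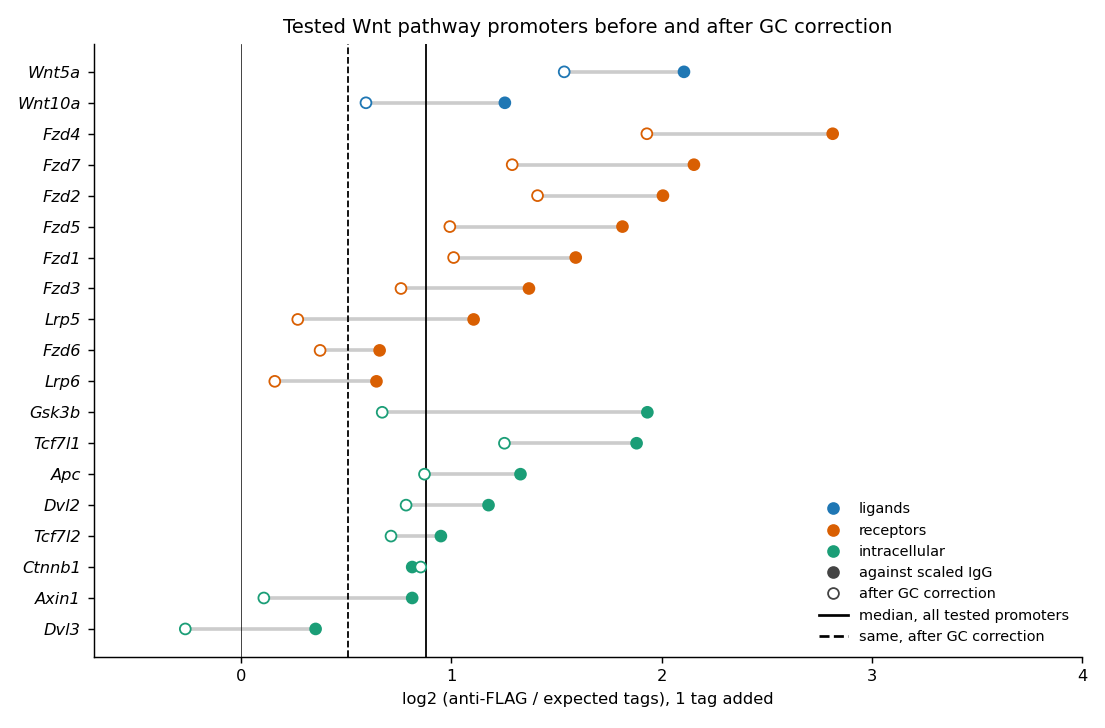
Log2 ratio of anti-FLAG to expected tags (x axis, 1 tag added) for the 19 tested members, against scaled IgG (filled) and after the GC correction (open); lines mark the medians of all tested promoters, 0.88 solid and 0.51 dashed. Fzd4 lay furthest right before and after the correction, Ctnnb1 hardly moved and Dvl3 fell below 0.

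Tags were also summed over the genes of each of the 3 classes. Ligand promoters had 157 anti-FLAG and 75 IgG tags in all, a ratio of 2.11 (1.59 to 2.81), receptor promoters 202 and 64, a ratio of 3.17 (2.39 to 4.27), and intracellular promoters 183 and 74, a ratio of 2.49 (1.89 to 3.30). All protein-coding promoters together had a ratio of 1.69 (1.68 to 1.70). Divided by the GC ratio of distant windows, the ratios were 1.18 (0.894 to 1.58) for ligands, 1.90 (1.43 to 2.56) for receptors, 1.64 (1.24 to 2.18) for intracellular genes and 1.34 for all promoters. Divided instead by the ratio of all promoters of the same GC, they were 0.921 (0.695 to 1.23), 1.36 (1.02 to 1.83) and 1.22 (0.926 to 1.62). The ligand interval included 1 after either correction, and the receptor interval excluded it after both. The intervals of the classes overlapped in each case, genes of a class are not replicates, and the difference between classes was not tested.

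**Figure D3:**
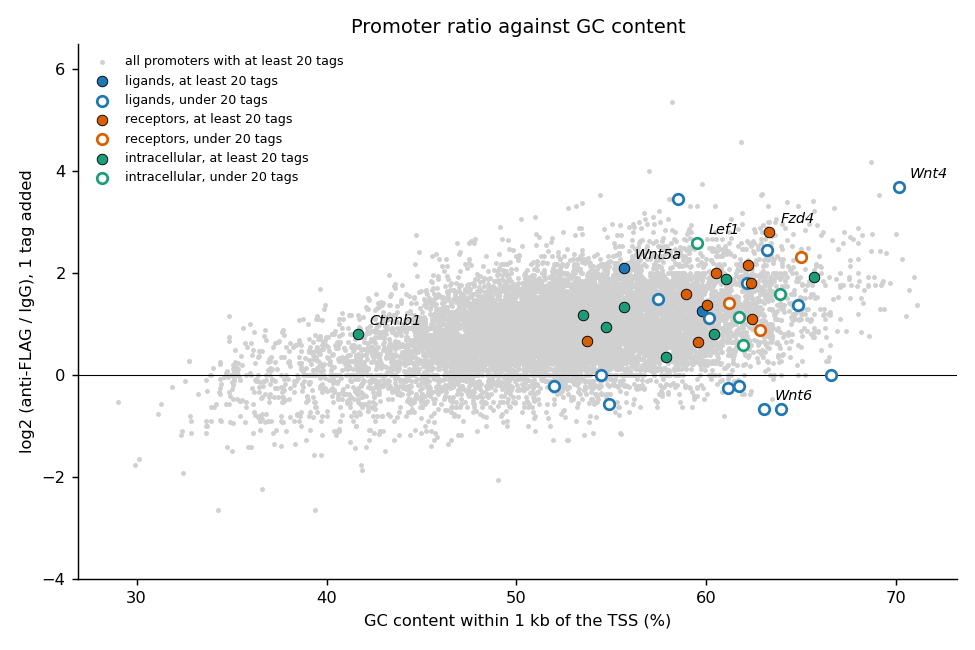
Log2 ratio of anti-FLAG to IgG tags within 1 kb of the TSS (y axis, 1 tag added) against the GC content of the same window (x axis, percent) for all tested promoters (grey) and the 41 members (colours by class, open circles under 20 tags). The ratio of the grey points rises with GC content, and the members lie around a median of 61.0% GC, with Ctnnb1 far to their left at 41.7%.

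Density at the TSS was also set against each gene's own flanks, a comparison added after the first results were seen. Within 500 bp of ligand starts the anti-FLAG library had 4.23 tags per gene per kb against 5.64 in the flanks 2.5 to 5 kb away, a ratio of 0.751 (0.578 to 0.964), and 4 of 17 ligands were above their flanks. The IgG library fell further there, to 1.41 from 4.18, a ratio of 0.338 (0.214 to 0.511). Ligand starts thus held fewer anti-FLAG tags than the DNA around them, although they held more than IgG. With flanks 4 to 5 kb away the anti-FLAG ratio was 0.861 and its interval, 0.644 to 1.14, included 1. At receptors the anti-FLAG density was 8.16 against 6.15, a ratio of 1.33 (1.05 to 1.66), with 6 of 12 genes above their flanks. At intracellular genes it was 8.66 against 5.02, a ratio of 1.73 (1.37 to 2.16), with 11 of 12 above. Over all protein-coding genes it was 1.70, and 62.1% were above. The IgG ratio was 0.337 (0.206 to 0.525) at receptors, 0.452 (0.285 to 0.688) at intracellular genes and 0.850 over all genes.

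These ratios can be set beside those of distant windows matched only on GC content, which are given without an interval. From the distant windows, the anti-FLAG ratio of start to flank would be 0.547 at ligands, 0.543 at receptors and 0.586 at intracellular genes, and the IgG ratio 0.281, 0.222 and 0.365. In each class the interval of the IgG ratio contained its GC value, while the interval of the anti-FLAG ratio lay above its own. Over all protein-coding genes both libraries lay above their GC values, IgG at 0.850 (0.844 to 0.857) against 0.635 and anti-FLAG at 1.70 against 0.809. Above 68% GC the distant windows were few, with 148 at 68 to 70%, so the expected values rest on little data for the most GC-rich starts. The median GC content within 500 bp of the TSS was 64.8% for ligands, 66.6% for receptors and 64.5% for intracellular genes.

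**Figure D4:**
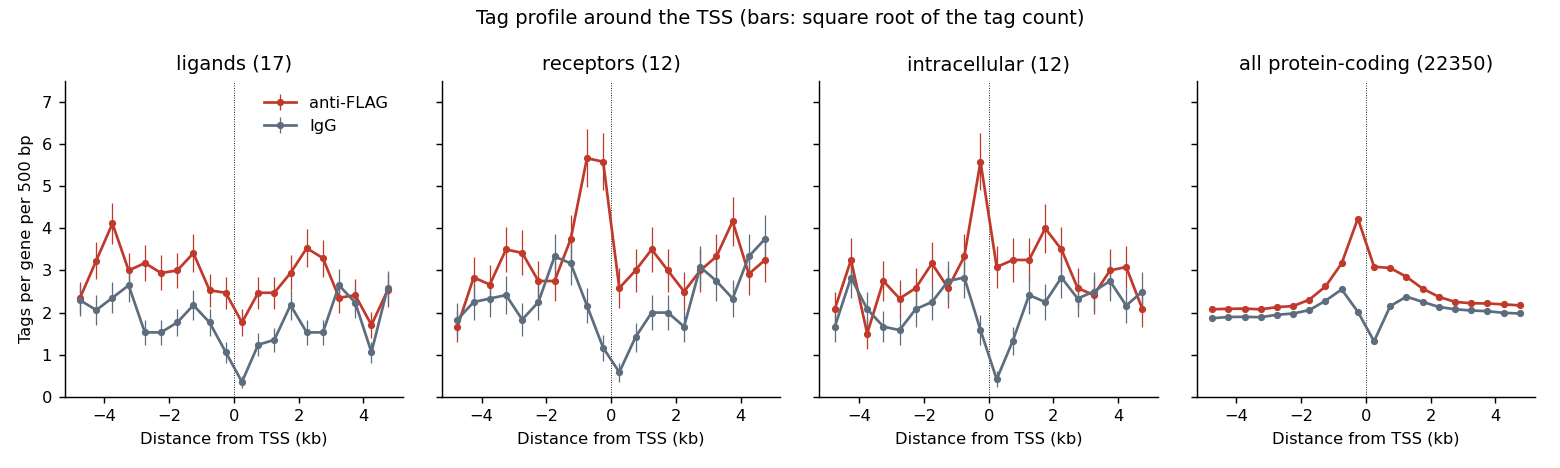
Tags per gene per 500 bp (y axis) against distance from the TSS in the direction of transcription (x axis, kb) for anti-FLAG (red) and IgG (grey) in the 3 classes and in all protein-coding genes; bars are the square root of the tag count. At ligands both libraries dip at the start, at receptors and intracellular genes anti-FLAG peaks just before it while IgG dips.

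The order of the classes depended on the window. Within 500 bp of the TSS the ratio was 3.02 (1.88 to 5.01) for ligands, 4.69 (2.91 to 7.92) for receptors and 4.36 (2.78 to 7.11) for intracellular genes, the order seen at 1 kb. Over all protein-coding promoters it was 2.21. After the GC correction at this width it was 1.24 (0.773 to 2.06) for ligands, 1.73 (1.07 to 2.92) for receptors and 1.96 (1.25 to 3.20) for intracellular genes. These intervals overlapped, and the value over all promoters was 1.48. Within 2.5 kb without the correction the ratios were 1.85, 1.79 and 1.66, with ligands highest, against 1.35 over all promoters. The change of order between settings was not tested. Within 500 bp, Fzd7 was the only member with 20 tags, with 25 against 4 and an exact test adjusted p of 5.88e-04. Of all 3010 promoters tested at this width, 62.6% were called higher and 0.0997% lower. After the GC correction the exact adjusted p of Fzd7 was 0.110, and 13.4% of all promoters were called higher and 0.0332% lower. Gsk3b had 11 tags against 0 at this width, Tcf7l1 12 against 1, Fzd4 10 against 1 and Wnt5a 15 against 2.

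Regions of local anti-FLAG enrichment, called in 500-bp windows against the largest of several IgG backgrounds at an exact Poisson p under 1e-05, lay within 1 kb of the TSS of 4 of 41 members (9.76%), against 7.37% of all protein-coding genes. The Fzd7 region (chr1:59538251-59539000) was centred 366 bp before the TSS and contains the bases printed above, with 21 anti-FLAG and 4 IgG tags in its best window (exact p = 1.74e-09). The Wnt5a region (chr14:29318251-29318750) was centred 564 bp after the TSS, with 14 and 2 tags (exact p = 2.73e-08). The Fzd4 region (chr7:96552001-96552500, 14 and 1 tags) lay 626 bp before the Fzd4 TSS and 482 bp from that of Tmem135. The Tcf7l1 region (chr6:72739501-72740000, 11 and 2 tags) lay 502 bp before the TSS. With the background multiplied by the GC ratio, only the Wnt5a region was called again, 1 of 41 members (2.44%) against 2.9% of all genes.

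Regions within 10 kb of the gene or inside it were found for 15 of 41 members (36.6%), against 21.5% of all protein-coding genes, and with the GC-corrected background for 9 (22.0%) against 12.7%. Members are longer, with a median length of 22698 bp against 15427.5 bp, and the part of length in this difference was not tested. The region of smallest p next to ligands (chr15:98611001-98611750) lay between Wnt10b and Wnt1, 2794 bp upstream of Wnt10b and 8913 bp upstream of Wnt1, with 23 and 4 tags in its best window (exact p = 5.35e-11). It was called with the GC-corrected background too, and it lay outside the promoter windows of both genes. Inside Tcf7l2, whose promoter did not pass, introns held 2 regions, 1 at chr19:55903751-55904500 (23 and 4 tags, exact p = 9.23e-10) and 1 at chr19:55912251-55912750 (21 and 4 tags, exact p = 1.74e-09), both also called with the GC-corrected background. Gsk3b had an intronic region at chr16:38197251-38198000 with 17 and 1 tags (exact p = 7.43e-09), in DNA of 43.9% GC and 108538 bp from its TSS.

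Several other members had regions away from their start. Wnt4 had an intronic region with 13 tags against 0 at 6096 bp from the TSS, and Wnt9a had regions 3930 bp before and 2195 bp after its TSS. Wnt11 had an intronic region 1628 bp into the gene, Tcf7l1 an intronic region with 11 tags against 1, and Wnt10b a further region downstream of its 3' end. Wnt5b had 2 intronic regions and 1 at its 3' end, and Lrp6 had 1 in an intron and 1 downstream, all 5 called with the GC-corrected background as well. Several of these regions were closer to the 5' end of another gene than to that of the member. Counting gene 5' ends only, the nearest was that of Adipor2 or Fbxl14 for the 3 Wnt5b regions. It was that of Bcl2l14 for both Lrp6 regions and that of Arf3 for the downstream Wnt10b region. A further coding start of Lrp6, 95672 bp into the gene, was closer to both Lrp6 regions than Bcl2l14 was. A further coding start of Wnt5b, 94932 bp into the gene, was closer than Adipor2 to the Wnt5b region at 99961 bp. The Lrp5 region lay 626 bp from the TSS of Ppp6r3, and the Dvl2 regions lay 279 bp from that of Phf23 and 87 bp from that of Acadvl.

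**Figure D5:**
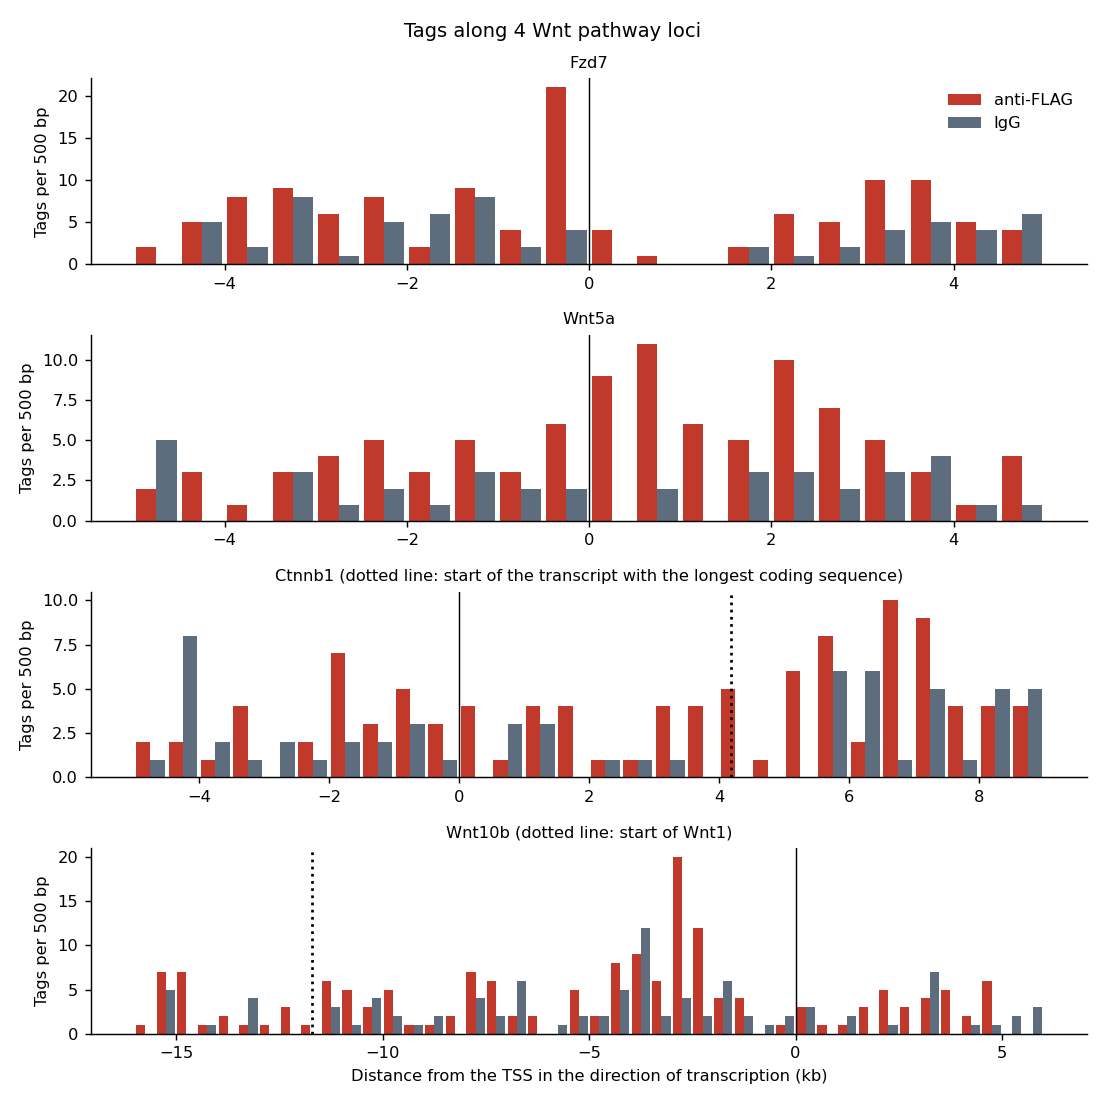
Tags per 500 bp (y axis) along Fzd7, Wnt5a, Ctnnb1 and Wnt10b by distance from the TSS (x axis, kb, solid line) for anti-FLAG (red) and IgG (grey). Fzd7 shows a single peak before the TSS, Wnt5a a broad excess after it, Ctnnb1 anti-FLAG tags with few IgG tags around its second start (dotted), and Wnt10b a peak between it and Wnt1 (dotted).

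Beyond the members, 76 further pathway genes were counted in 7 lists, and 49 of them had enough tags to test. Of these, 20 were called higher at 1 kb and 0 lower, against 29.6% of all tested promoters called higher, and the median log2 ratio of those tested was 1.11, against 0.88 for all tested promoters. Several of the lists lie near that share. The partners of the destruction complex had 4 of 7 tested genes called, led by Fbxw11, a ubiquitin ligase subunit that recognises beta-catenin (18 and 2 tags, exact test adjusted p = 0.0034), and Tnks2, a tankyrase that destabilises Axin (36 and 13, exact adjusted p = 0.0079). The planar polarity and co-receptor list had 5 of 7, led by the cadherin Celsr3 (26 and 4, exact adjusted p = 0.0012) and the co-receptor Ptk7 (28 and 5, exact adjusted p = 0.0013). Nuclear cofactors had 3 of 10, with the beta-catenin partner Bcl9l (21 and 3, exact adjusted p = 0.0028) and the corepressor Tle4 (23 and 4, exact adjusted p = 0.0030) first.

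The remaining lists were the R-spondin axis, the secreted inhibitors, the secretion genes and the transcriptional targets. Of the R-spondin axis, 2 of 6 tested genes were called, the receptors Lgr4 (19 and 3 tags, exact test adjusted p = 0.0056) and Lgr6 (22 and 7, exact adjusted p = 0.0242). Of the secreted inhibitors, 1 of 3 was called, Wif1 (22 and 7, exact adjusted p = 0.0242), and Sfrp1 had 22 and 10 (exact adjusted p = 0.0874). Of the secretion genes, Wls, the carrier that brings Wnts to the cell surface, was the only one tested (20 and 8, exact adjusted p = 0.0676), and Porcn was too sparse. Of the transcriptional targets, 5 of 15 were called, led by Ccnd2, the gene for cyclin D2 (21 and 1, ratio 21.1, exact adjusted p = 0.00036), and the protease gene Mmp14 (28 and 8, exact adjusted p = 0.0073). Ccnd2 was the only 1 of the 49 tested that also passed after the GC correction, with exact adjusted p = 0.0472, near the 2.75% of all promoters that passed. With the ratio of all promoters of the same GC, 0 of the 49 passed. The summed ratio of the 76 genes was 2.22 (2.01 to 2.46), against 2.56 (2.18 to 3.01) for the 41 members.

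The surroundings of the members were close to even between the libraries. Over 500 kb either side of the TSS, the ratio of anti-FLAG to scaled IgG tags had a median of 1.16 for members, with a range of 0.943 to 1.37, and of 1.09 for all protein-coding genes. The class medians were 1.18 for ligands, 1.11 for receptors and 1.15 for intracellular genes.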

How the data were processed

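Tag positions were deposited by the submitters for 1 anti-FLAG and 1 IgG library, and no aligner, build or filter is named (not given in the sources used here). Per the labels, fixation was with 1% formaldehyde for 15 min and shearing gave fragments of 300 to 500 bp on average. The deposited score column held 512 in every line and was set aside, every tag spanned 36 bp, and 0 tags shared position and strand within a library. Tags on the autosomes and X numbered 9255188 (anti-FLAG) and 9308877 (IgG), and 0 of them ran past a chromosome end of NCBIM37, whose genome and annotation (37252 genes) were used.

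Tag 5' ends were moved 74 bp downstream, from a strand lag of 149 bp. Counts within 1 kb of each protein-coding gene's 5' end were compared by 2-sided exact binomial test with Benjamini-Hochberg adjustment at 0.05 over all promoters with at least 20 tags. Log2 ratios had 1 tag added. Expected ratios for the GC correction came from 500-bp windows over 10 kb from every TSS in strata of 2 GC points, widened to at least 200 windows, or from at least 50 promoters per stratum. Enriched regions joined overlapping 500-bp windows, placed every 250 bp, that had at least 10 tags and were 2-fold over the largest IgG background. Intervals are exact at 95%. Python 3.11.15, NumPy 2.4.6, SciPy 1.17.1, pandas 2.3.3 and Matplotlib 3.10.9 were used.

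The members, lists and tests were chosen with earlier results of these data known. Named with full values were all members past the test, Ctnnb1, Axin2, Lef1, Tcf7l2, Lrp5, Lrp6 and the lowest tested member of each class, and of each further list the 2 genes of smallest p. Alternatives changed the promoter width, tag shift, scaling, GC correction, start used, tag minimum, pseudocount, neighbouring starts and region settings.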

Additional observations from a re-analysis of the deposited data

How the results depend on the processing

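The number of called members was 10 of 19 tested, against 29.6% of all tested promoters. It was 9 of 39 at 2.5 kb against 10.4%, and 9 of 19 without moving tags against 29.4%. With the IgG library scaled by background bins it was 12 of 19 against 37.8%. At the start of the longest coding transcript it was 8 against 30.1%. A 2-fold rule with no test gave 13 of 19 against 44.2%. The count was 12 at a minimum of 10 tags, 11 with no minimum and 7 where no other gene starts within 2 kb. For these last settings the share over all promoters is not given, so the counts are not set against other genes. At 2.5 kb, 6 of the 10 were called, Apc, Dvl2, Fzd1 and Gsk3b were not, and Wnt4, Wnt5b and Wnt9a were added. The number was 1 within 500 bp, where 1 member had 20 tags, 0 with the GC ratio of distant windows, 0 with that of all promoters and 0 at 500 bp with the GC ratio. At 10 tags, Wnt3, Wnt4, Wnt5b and Lef1 were called and Apc and Dvl2 were not. Those 4 added genes had 10 to 12 anti-FLAG tags against 0 or 1. They reached the lower minimum through their anti-FLAG tags alone, so these calls are not separate support for an excess. The median log2 ratio of 1.33 (0.88 over all promoters) was 2.39 at 500 bp, where it is the value of Fzd7 alone (1.46 over all), 0.77 at 2.5 kb over 39 members (0.40), 0.79 with the GC ratio of distant windows (0.51) and 0.39 with that of promoters (0.094). The summed ligand ratio of 2.11 was 3.02 at 500 bp, 1.18 and 0.921 with the distant and promoter GC ratios, 1.24 at 500 bp with the distant GC ratio, and 1.85 at 2.5 kb. For receptors these values were 4.69, 1.90, 1.36 and 1.73, and 1.79 at 2.5 kb. For intracellular genes they were 4.36, 1.64, 1.22 and 1.96, and 1.66 at 2.5 kb. Ligands had the highest ratio at 2.5 kb and intracellular genes at 500 bp with the GC ratio, where the class intervals overlapped. Members with a region at the TSS were 4 of 41, against 7.37% of all protein-coding genes. They fell to 2 at p under 1e-07 (Fzd7 and Wnt5a), where the share over all genes was not counted. With the GC background 1 was left, against 2.9% of all genes. The start-to-flank ratio of intracellular genes, 1.73, was 1.36 with flanks 1 to 2.5 kb away, an alternative added after seeing the data. Among tested members, log2 ratios turned negative with the distant GC ratio for Dvl3 (-0.26) and with the promoter GC ratio for Dvl3 (-0.68), Lrp6 (-0.42), Axin1 (-0.29), Fzd6 (-0.19), Lrp5 (-0.17) and Tcf7l2 (-0.0021). Of untested members with more anti-FLAG than IgG tags, Fzd8 (-0.075 and -0.37 with the 2 GC ratios) and Tcf7 (-0.11 and -0.40) also turned negative. The cause of these changes between settings was not tested. No paired analysis was possible because each antibody had 1 library, and no library could be left out. Of the 41 members, 22 were below the tag minimum, which limits most to their counts.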
